A study of Homo sapiens with 6 samples.

Results

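The NOTCH receptors NOTCH1, NOTCH2 and NOTCH3, the ligands JAG1, JAG2 and DLL1, the targets HES1, HES4 and HEY1, and the DNA binding factor RBPJ were followed in EJ/T24 cells, an established human line of invasive bladder cancer. These 10 genes were taken by name, and every probeset whose array annotation gives exactly 1 symbol, and that symbol is one of theirs, was used. This gave 27 of the 54613 probesets tested (10 of 19775 genes with a probeset of their own). A probeset is a group of short oligonucleotides that together read a transcript. Whole genome mRNA was measured on 6 HG-U133 Plus 2.0 arrays, 3 from cells transfected with FOXA1 (a forkhead factor that opens chromatin) and 3 from cells given an empty plasmid (control). All dishes received 24 μg of DNA with a lipid reagent at 70% confluence, in DMEM with fetal calf serum. The sample labels call the empty plasmid pUC19, whereas the study's methods give pcDNA3 as the vector that carried FOXA1. The question was how raised FOXA1 alters the transcripts of bladder cancer cells, and each value is a MAS5 signal (Affymetrix intensity on a linear scale).

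NOTCH signaling passes between touching cells. A ligand of the Jagged or Delta type on one cell binds a NOTCH receptor on the next, the receptor is cut by ADAM proteases and then by gamma-secretase, and the freed intracellular part enters the nucleus. There it joins RBPJ (also called CSL) and a Mastermind coactivator, and genes of the HES and HEY families, which encode basic helix-loop-helix repressors, are switched on. Without that receptor fragment RBPJ recruits corepressors to the same sites. In urothelium the pathway takes part in differentiation, and loss of receptor function has been described in bladder cancer.

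RBPJ recognises the letters TGGGAA, and of its sites only exact matches to these letters were searched for. The RefSeq promoter windows (GRCh38.p14) of HES1 and HES4 are shown because these genes are the direct readout of the pathway here. Each run is the 250 bases before the transcript start, read 5′ to 3′ on the gene's strand, with TGGGAA (searched with its reverse complement TTCCCA) in capitals.

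HES1, chr3:194135898-194136147, plus strand: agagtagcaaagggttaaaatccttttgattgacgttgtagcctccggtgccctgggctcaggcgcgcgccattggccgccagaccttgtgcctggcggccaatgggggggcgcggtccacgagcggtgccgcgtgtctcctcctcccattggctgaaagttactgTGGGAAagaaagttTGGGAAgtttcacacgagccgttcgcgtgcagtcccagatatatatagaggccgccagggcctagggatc

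HES4, chr1:1000098-1000347, minus strand: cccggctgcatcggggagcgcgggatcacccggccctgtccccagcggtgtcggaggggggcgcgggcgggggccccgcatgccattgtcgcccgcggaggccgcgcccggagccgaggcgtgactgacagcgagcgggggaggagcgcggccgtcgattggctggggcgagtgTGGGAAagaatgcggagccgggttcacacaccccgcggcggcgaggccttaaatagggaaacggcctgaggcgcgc

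The capitals begin 84 and 70 bases before the start of HES1, and 76 bases before that of HES4, all on the gene's strand. As only exact matches were searched, the capitals do not count RBPJ sites and do not set HES1 apart from HES4. At least 1 such match was found in 20.8% of all 35116 promoter windows of this length, and 2 or more in 2.9%. The longer form GTGGGAA, which contains the shorter, was present in both genes and in 5.43% of all windows. Promoter windows of 8 of the 10 genes were searched, 12 windows in all, with none for the ligand DLL1 or the target HEY1. Any window of the 10 genes on chromosome 8 was left out of this search, but not out of the 35116 windows. TGGGAA was present in 3 of these 12 windows, 1 each of HES1, HES4 and RBPJ itself, beside the 20.8% of all windows. The forkhead letters TGTTTAC (reverse complement GTAAACA) were in none of the 12 and in 2.98% of all windows. These matches describe letters only, and binding was not measured here.

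FOXA1 itself, at its brighter probeset, had signals of 38.9, 34.8 and 31.9 in FOXA1 transfected and 21.8, 24.4 and 21.0 in control arrays, without overlap (log2 difference 0.65, adjusted p = 0.307 from limma). Its dim second probeset had 2.5, 6.8 and 6.6 against 8, 7.3 and 5.9, with overlap (log2 difference -0.54). Every difference is FOXA1 transfected minus control, as labelled. The study's own table of changed genes runs the other way, with genes that were higher here given as lower there, and which direction is right was not settled. The brighter FOXA1 probeset runs with the labels and the dim one, within its spread, does not. The study reports that part of the transfected cells served to establish FOXA1 expression by western blot, shown for triplicates of control and FOXA1. That blot was not analysed here. Median signals ran from 14.4 to 17.5 with FOXA1 and from 12.3 to 16.1 without it. RNA quality was followed through ACTB, whose 3′ over 5′ ratio had a mean of 2.37 ± 0.228 with FOXA1 and 1.73 ± 0.188 in controls (SD, n = 3 each), without overlap (p = 0.1 by an exact two-sided permutation test, which cannot give less with 3 against 3). The same ratio of GAPDH was 0.920 ± 0.0217 against 0.899 ± 0.00926, with overlap (p = 0.3, exact two-sided permutation test). The part of RNA quality in the results below was not tested. Of 6 epithelial markers, 3 (KRT7, KRT8 and KRT18) lay above the median mean signal of all probesets (14.47) and EPCAM, CDH1 and KRT19 did not, while all 4 mesenchymal markers did (VIM, CDH2, ZEB1 and FN1). Summed signals of 3 leukocyte markers were 21.1 to 33.7 with FOXA1 and 14.7 to 25.5 in controls, with none of the markers above that median. Of 6 urothelial differentiation markers, 2 lay above it (UPK1B and PPARG). So did 1 of 3 endothelial markers (PECAM1), 1 of 2 nerve markers (SNAP25) and 0 of 2 muscle markers. The methods state that experiments were run in triplicate, without saying whether each array had a culture of its own, so p-values measure the spread between these arrays only, which may be technical.

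No probeset of the 10 genes passed limma at an adjusted p under 0.05, 0 of 27 in either direction, where over all probesets 0.0385% were called higher and 0.0201% lower. The smallest adjusted p among them was 0.304, and 2 of 27 (7.41%) had an unadjusted p under 0.05, against 11.3% of all probesets. Log2 differences were positive at 14 probesets and negative at 13 (median 0.03), while over all probesets 58.2% lay above 0 with a median of 0.08. At no member probeset did the FOXA1 transfected group lie wholly above the control group, a pattern present in 10.5% of all probesets. At 1 of the 27, the brightest of RBPJ, it lay wholly below, a pattern present in 5.86% of all probesets. Of the 27, 15 lay above the median signal of 14.47, and 5 had a mean under 3.5, the 20th percentile of all signals, which was used as a floor.

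**Figure D1:**
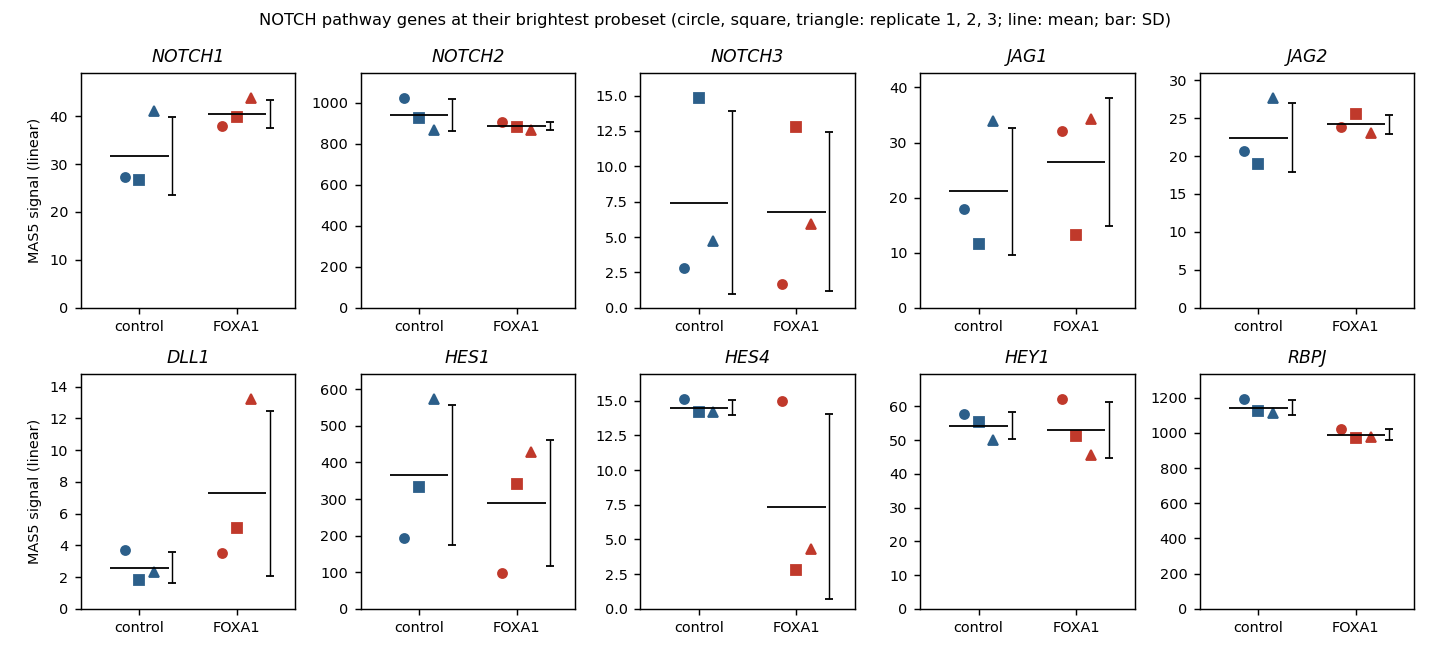
MAS5 signal (linear, y axis from 0) of each gene at its brightest probeset in 3 control and 3 FOXA1 transfected arrays. Points are arrays, lines are means and bars are SD. At RBPJ the groups did not overlap, and at HES1 the arrays of each group spread widely, from 97.2 to 428.6 and from 192.4 to 572.5.

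Among the receptors, NOTCH1 and NOTCH2 were read at clear signals and NOTCH3 was dim. NOTCH2, the receptor also active in kidney and liver duct development, had signals of 904.8, 884.1 and 869.0 in FOXA1 transfected and 1021.3, 927.1 and 868.1 in control arrays at its brightest probeset. The groups overlapped, since the lowest value of all 6 was a control array. The log2 difference was -0.08 (95% interval -0.26 to 0.10, adjusted p = 0.757 from limma), a ratio interval of 0.836 to 1.07. Median centring, which puts the median signal of every array at the same level, moved the difference to -0.26, outside that interval, and quantile normalization gave -0.06. A second probeset of NOTCH2 at like signal (826.6 ± 35.84 against 871.3 ± 28.7, SD, n = 3 each) gave -0.08 too, with the interval from -0.24 to 0.09. The dimmer 2 NOTCH2 probesets differed by -0.16 and 0.18. The brightest is of the _x_at kind, which may also bind near-identical transcripts, and 1 more probeset that the annotation shares between NOTCH2 and its NOTCH2NL paralogs was left out by the rule of a single symbol.

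NOTCH1, the receptor whose truncated form drives T cell leukemia, had signals of 37.9, 39.8 and 43.7 in FOXA1 transfected and 27.2, 26.7 and 41.1 in control arrays. Control arrays 1 and 2 lay below all others and control array 3 lay within the FOXA1 transfected group. The log2 difference was 0.38 (SE 0.23, 95% interval -0.12 to 0.88, adjusted p = 0.571 from limma), and the ratio 1.30. It was 0.20 with median centring and 0.58 without control array 3. The other NOTCH1 probeset was under 3.5 in all 6 arrays (log2 difference 0.16). NOTCH3, the receptor of vascular smooth muscle, had signals of 1.7, 12.8 and 5.9 against 2.8, 14.8 and 4.7. In both groups the arrays differed among themselves by more than the groups did, and the interval of the log2 difference ran from -2.15 to 1.75. The other NOTCH3 probeset had 6.2, 5 and 4.2 against 6.1, 3.4 and 4.7 (log2 difference 0.14). No difference in NOTCH3 was detectable at these signals.

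Among the ligands, 9 of 10 probesets had log2 differences above 0 (median 0.48), none passed limma, and the groups overlapped at all 10. Only 3 of the 10 lay above the median signal, and over all probesets at or under that median 61.1% were above 0. The count of 9 fell to 6 with quantile normalization and to 7 with median centring of the arrays. The median of these 10 was 0.14 without FOXA1 transfected array 1, 0.84 without FOXA1 transfected array 2 and 0.12 without control array 2. JAG1, a Jagged ligand that is itself often raised in tumors, was read by 6 probesets, with differences from 0.03 to 1.59. At the brightest its signals were 32.0, 13.2 and 34.2 in FOXA1 transfected and 18.0, 11.5 and 33.9 in control arrays (log2 difference 0.35, 95% interval -0.67 to 1.36, adjusted p = 0.825 from limma). Array 2 of each group was the lowest and array 3 the highest. Without control array 2 that difference was -0.02. At the next JAG1 probeset the signals were 19.4, 14.1 and 33.2 against 14.7, 7.4 and 23.2 (log2 difference 0.62, SE 0.47), again with overlap. The other 4 JAG1 probesets lay at or under the median signal and overlapped too. Their log2 differences were 0.19, 0.03, 1.59 and 0.65. At the probeset with 1.59, 4 arrays were under 3.5, and at that with 0.65, 5 arrays were. With signals under 3.5 set to 3.5 these 2 differences were 0.48 and 0.

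JAG2, the other Jagged ligand, gave opposite signs at its 2 probesets. At the brighter it had 23.8, 25.6 and 23.1 in FOXA1 transfected and 20.7, 19.0 and 27.6 in control arrays (log2 difference 0.12, 95% interval -0.47 to 0.72), a sign that turned with quantile normalization and with median centring. At the dimmer it had 1.1, 1.4 and 14.9 against 8.6, 17.0 and 12.3 (log2 difference -2.10, SE 0.93, adjusted p = 0.429 from limma). FOXA1 transfected arrays 1 and 2 were under 3.5 there and array 3 lay among the controls. With signals under 3.5 set to 3.5 this difference was -1.10. DLL1, a Delta ligand, had 3.5, 5.1 and 13.2 in FOXA1 transfected and 3.7, 1.8 and 2.3 in control arrays (log2 difference 1.31, 95% interval -0.34 to 2.97, adjusted p = 0.552 from limma). FOXA1 transfected array 3 alone stood above 10, and with the same floor the difference was 0.79. Without that array it was 0.77, and without FOXA1 transfected array 1 it was 1.72. The second DLL1 probeset had 9, 1.1 and 1.2 against 5.4, 1 and 0.5 (log2 difference 0.71, 95% interval -1.73 to 3.16).

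**Figure D2:**
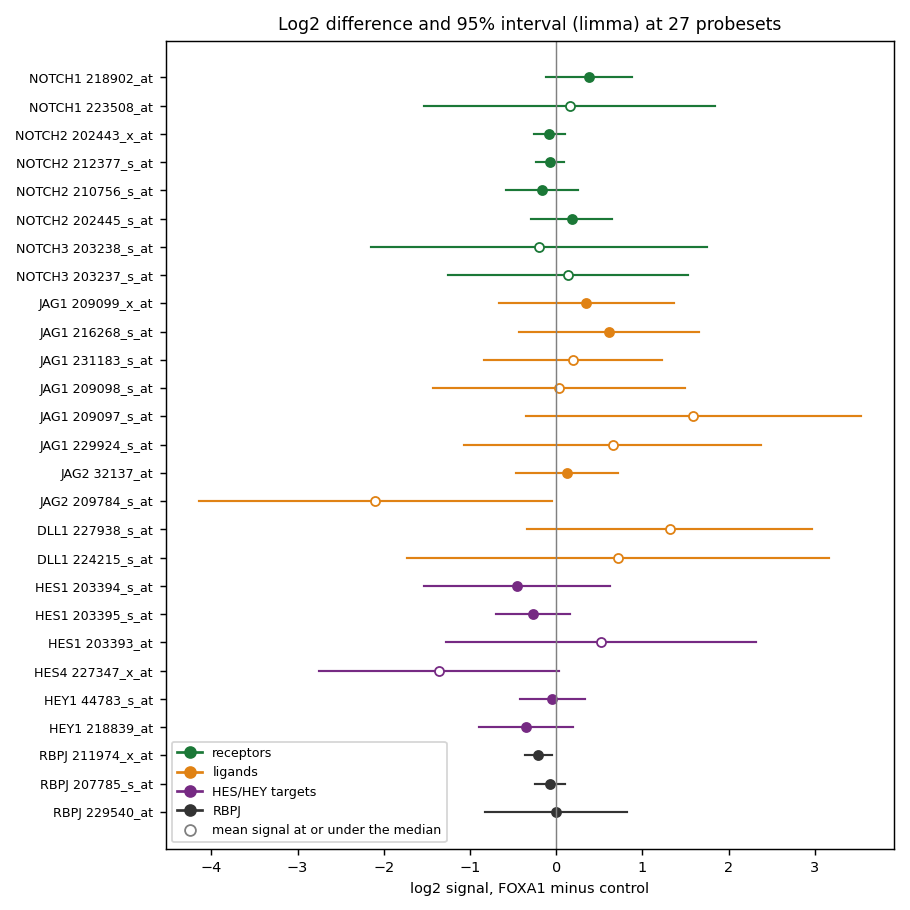
Log2 difference of signal (FOXA1 transfected minus control, x axis) with its 95% interval from limma at the 27 probesets, ordered by gene. Filled points lie above the median signal and open points at or under it. The intervals are narrow at the bright probesets of NOTCH2 and RBPJ (0.327 log2 units wide at the second NOTCH2 probeset), while the open points of DLL1, JAG2 and NOTCH3 have intervals 2.78 to 4.89 log2 units wide.

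Among the targets, 5 of 6 probesets had log2 differences below 0 (median -0.31), and none passed limma. Over all probesets 58.2% lay above 0. The 6 probesets read HES1, HES4 and HEY1 only, some of them the same gene, so they are not independent readings. The count of 5 was the same with quantile normalization and with median centring. Without FOXA1 transfected array 1 it was 4 of 6 with a median of -0.12, and without control array 3 the median was -0.11. HES1, the repressor that holds progenitors undifferentiated, had signals of 97.2, 341.3 and 428.6 in FOXA1 transfected and 192.4, 332.7 and 572.5 in control arrays at its brightest probeset. The highest array was 4.41 times the lowest within the FOXA1 transfected group and 2.98 times within the control group. This within-group spread (SD 0.99 log2 units) was matched or exceeded by 1.37% of all probesets above the median signal, whose median SD was 0.19. The log2 difference between the groups was -0.46 (SE 0.49, 95% interval -1.54 to 0.63, adjusted p = 0.778 from limma), within that spread. Array 1 was the lowest and array 3 the highest in both groups. With the replicate number as a term in the fit the adjusted p was 0.265 from limma. Without FOXA1 transfected array 1 the difference turned to 0.20.

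A second HES1 probeset had 101.0, 131.5 and 176.7 in FOXA1 transfected and 153.7, 135.7 and 197.2 in control arrays. There the spread was smaller, 1.75 and 1.45 times from lowest to highest, and the log2 difference was -0.27 (SE 0.20, 95% interval -0.70 to 0.16, adjusted p = 0.650 from limma). The groups overlapped. The remaining HES1 probeset was under 3.5 in all 6 arrays (log2 difference 0.52).

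HES4, a HES relative read by 1 probeset of the _x_at kind, had 15, 2.8 and 4.3 in FOXA1 transfected and 15.1, 14.2 and 14.2 in control arrays. The control arrays lay close together, FOXA1 transfected array 1 lay among them and the other two stood below. The log2 difference was -1.36 (SE 0.63, 95% interval -2.75 to 0.03, adjusted p = 0.454 from limma), and ran from -2.06 without FOXA1 transfected array 1 to -0.85 without FOXA1 transfected array 2. HEY1, a repressor of the related HEY family, had 62.1, 51.3 and 45.6 in FOXA1 transfected and 57.6, 55.3 and 50 in control arrays (log2 difference -0.04, 95% interval -0.42 to 0.33). The FOXA1 transfected group held both the highest and the lowest value. At the dimmer HEY1 probeset the signals were 22.0, 26.5 and 23.5 against 31.1, 36.6 and 24.8 (log2 difference -0.35, SE 0.25, adjusted p = 0.645 from limma), where FOXA1 transfected array 2 lay above control array 3.

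RBPJ, through which the receptors act on DNA, was lower by a small margin at its brightest probeset without passing the test. Its signals were 1023.1, 968.2 and 979.3 in FOXA1 transfected and 1190.8, 1127.0 and 1114.0 in control arrays. All 3 FOXA1 transfected arrays lay below all 3 control arrays, with a gap wider than the spread inside either group (exact two-sided permutation test, p = 0.1). The log2 difference was -0.21 (SE 0.07, 95% interval -0.37 to -0.05), a ratio of 0.866, at an adjusted p = 0.304 from limma. With median centring the difference was -0.39, and with quantile normalization -0.19, and neither passed. The second RBPJ probeset, of like brightness, had 915.0, 899.4 and 933.9 against 1001.5, 1006.5 and 886.7 (log2 difference -0.07, 95% interval -0.24 to 0.10), and control array 3 was the lowest of all 6. The brightest probeset is of the _x_at kind and the second is not. The dim remaining probeset had means of 19.37 and 20.73, a log2 difference of -0.001.

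**Figure D3:**
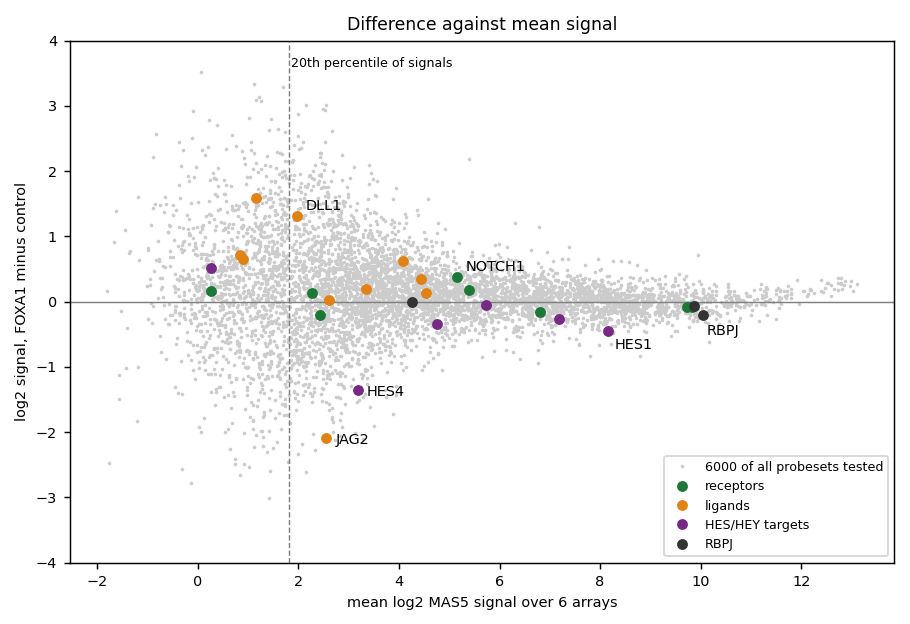
Log2 difference of signal (FOXA1 transfected minus control) against mean log2 signal over 6 arrays for 6000 probesets drawn at random (grey, 2 beyond the axis) and the 27 probesets of the NOTCH genes (coloured by role). The dashed line marks the 20th percentile of all signals, 3.5. The larger differences, of JAG2 (-2.10), a dim JAG1 probeset (1.59), HES4 (-1.36) and DLL1 (1.31), lie at low signals where grey points spread widely, and RBPJ (-0.21) lies at high signal.

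The other genes of the pathway were taken from 5 lists holding 63 genes, of which 58 were read. None of the 58 passed limma, where 0.0961% of all genes did at their brightest probeset, and 8 of 58 (13.8%) had an unadjusted p under 0.05, against 14.7% of all genes. The FOXA1 transfected arrays all lay above the control arrays at 7 genes (12.5% of all genes) and all below at 5 (7.26% of all genes). These shares lie near those of all genes. The median log2 difference of the 58 was 0.04, against 0.07 over all genes.

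Of 19 nuclear partners of RBPJ and HES, 10 were positive and 9 negative, within -0.32 to 0.24. HDAC1, a deacetylase of the corepressor complexes, had 2388.9, 2375.2 and 2391.2 in FOXA1 transfected and 2089.2, 2060.7 and 2041.0 in control arrays, without overlap (log2 difference 0.21, adjusted p = 0.274 from limma). MAML1, the Mastermind coactivator, had 369.6, 361.2 and 401.2 against 311.4, 314.0 and 329.8, also without overlap (log2 difference 0.24, adjusted p = 0.303 from limma). L3MBTL3, which recruits a demethylase to RBPJ, had 101.1, 89.2 and 101.0 against 131.0, 116.4 and 116.6 (log2 difference -0.32, adjusted p = 0.332 from limma). Median centring lowered all differences alike, to 0.03 for HDAC1, 0.06 for MAML1 and -0.50 for L3MBTL3. For genes described below it gave -0.37 for HES6, 0.51 for HES7, -0.50 for APH1B and 0.18 for ITCH.

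Of 8 further HES/HEY family genes and feedback targets, 6 were positive and 2 negative (median 0.70), where 59.2% of all genes lay above 0. Of these 8, 4 lay above the median signal. HES7, the oscillating repressor of somite formation, had 50.3, 35.0 and 34.7 in FOXA1 transfected and 19.2, 23.7 and 32.1 in control arrays (log2 difference 0.69, SE 0.26, adjusted p = 0.354 from limma). HES6, an inhibitor of HES1, had 137.7, 131.1 and 133.8 against 153.4, 149.8 and 154.2 (log2 difference -0.18, adjusted p = 0.520 from limma). In both of these the groups did not overlap, HES7 higher and HES6 lower. HES2 had 9.8, 20.3 and 6.6 against 1.4, 0.7 and 6.9, with control arrays 1 and 2 under 3.5 and control array 3 above FOXA1 transfected array 3 (log2 difference 2.53, 1.32 with signals under 3.5 set to 3.5).

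Of 6 other receptors and ligands, DLK2, a non-canonical ligand, had the smallest p, with 76.0, 66.0 and 58.2 in FOXA1 transfected and 31.9, 43.6 and 59.0 in control arrays (log2 difference 0.61, adjusted p = 0.329 from limma). Control array 3 lay just above the lowest FOXA1 transfected array. DLL4, a Delta ligand of blood vessels, and NOTCH4, the endothelial receptor, differed by 0.70 and -0.50 both under the median signal. Of 13 genes that cut or glycosylate the receptors, 7 lay above 0 and 6 below. APH1B, a subunit of gamma-secretase, had 76.0, 72.3 and 74.7 against 85.7, 87.5 and 105.0, without overlap (log2 difference -0.31, adjusted p = 0.408 from limma). FURIN, the protease of the first cut, and the gamma-secretase subunit PSEN2 differed by 0.59 and 0.34, both with overlap.

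Of 12 genes of endocytosis and degradation, 4 lay above 0 and 8 below. ITCH, a ubiquitin ligase that removes NOTCH, had 321.4, 336.3 and 341.9 in FOXA1 transfected and 286.6, 298.6 and 202.9 in control arrays (log2 difference 0.36, SE 0.13, adjusted p = 0.335 from limma), without overlap. NEURL1B and MIB1, ubiquitin ligases of the ligands, differed by -0.54 and -0.23, the first without overlap and the second with it.

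**Figure D4:**
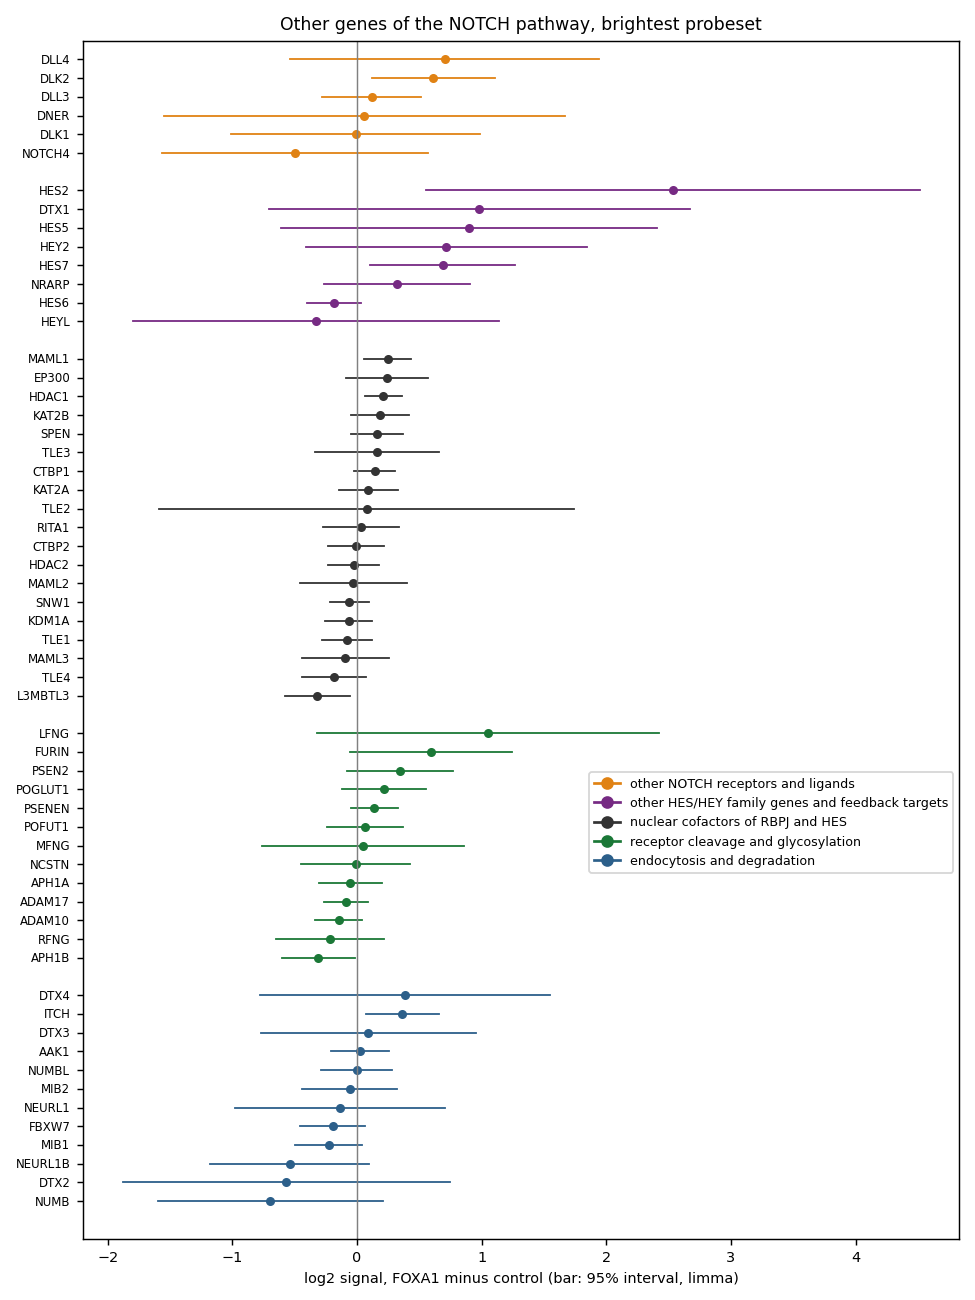
Log2 difference (FOXA1 transfected minus control) with the 95% interval from limma for 58 other genes of the NOTCH pathway at their brightest probeset, coloured by list. None passed the adjusted threshold. HES2 has the largest difference (2.53) and a wide interval, from 0.55 to 4.51.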

How the data were processed

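The authors deposited MAS5 signals (Microarray Analysis Suite 5), which are linear intensity values scaled to a trimmed mean of 100.01 per array. RMA conversion and SAM, which the methods describe next, are not in these values. Of 54675 probesets, 62 array controls were left out. Signals listed at 0 (25) were set to 0.1, converted to log2 and compared with limma 3.58.1 in R 4.3.3 (intensity trend, two-sided, Benjamini-Hochberg over all 54613 probesets, threshold 0.05). SAM was not run. Intervals are 95% from limma. Symbols came from the platform annotation, and of 41091 probesets naming 1 gene, 41037 matched RefSeq. A gene was read by its brightest probeset. All probesets of the members were described, with up to 3 genes of smallest p in each of 5 lists. Of the listed genes, 5 were not analysed here. Members and lists were chosen with earlier results of these data known. The fit was tested on simulated data. No 2 arrays held identical values, and the number of arrays limits precision. Alternatives covered scaling, a floor, filters, the trend, a block for replicate number, and leaving out arrays in turn.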

Additional observations from a re-analysis of the deposited data

How the results depend on the processing

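No member probeset and no gene of the pathway lists passed the threshold under any of the 13 alternatives, in which 1 to 174 probesets passed overall. The smallest adjusted p of a member from limma was 0.140, at the dimmer JAG2 probeset without FOXA1 transfected array 3. That array was the FOXA1 transfected one that lay among the controls there. The number of member probesets without overlap was 2 with quantile normalization and with median centring, and 0 without _x_at probesets, among which is that of RBPJ. It was 1 to 7 with 1 array left out, where fewer arrays make separation easier. The same count over all probesets was not made under these alternatives, so these numbers show nothing particular to the members. The median of the member probesets was -0.15 after median centring, which moved the median of all probesets from 0.08 to -0.10, and the median of all was -0.005 after quantile normalization. Gene values turned sign in 9 of 136 cases. That total includes cases whose sign could not turn, since the trend and the block alter only the test. Leaving out dim probesets likewise kept the difference of every gene that remained, so 9 of 136 is not a measure of stability. At its brighter probeset JAG2 was -0.027 with quantile normalization and -0.057 with median centring. The median over both JAG2 probesets was -0.99, and NOTCH3 was 0.040 with the floor at 3.5. With 1 array left out NOTCH3 ranged from -0.87 to 0.58, HES1 from -0.87 to 0.20, HES4 from -2.06 to -0.85, DLL1 from 0.77 to 1.72, NOTCH1 from 0.27 to 0.58, NOTCH2 from -0.14 to -0.02, HEY1 from -0.16 to 0.058 and JAG1 from -0.020 to 0.79. The causes were not tested. The replicate numbers were not taken to pair the arrays, since the methods state no pairing. Deviations of same-numbered arrays correlated at 0.002, 0.04 and 0.01 over all probesets. Over those above the median signal they correlated at 0.04, 0.16 and 0.11, where arrays of different number correlated at -0.13 to 0.03. Over the bright probesets every array correlated best with its own number, a hint from the data and not from the design. With the number as a block 85 probesets passed overall and 0 members, and HES1 (-0.46) had an adjusted p of 0.265 from limma. Dim signals limit what NOTCH3, DLL1, HES4 and JAG2 can show.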
